A study of Mus musculus with 12 samples.

Results

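The transcription factors that set regional identity along the intestine were examined in mouse colonoids, organoids grown from epithelial stem cells of the colon. The set held 9 genes, matched by name, out of 54532 genes in the deposited table: *Cdx1*, *Cdx2*, *Gata4*, *Gata5*, *Gata6*, *Hnf4a*, *Hnf4g*, *Nr5a2* and *Prdm1*. Each symbol matched 1 row of the table. The 12 libraries of poly-A mRNA fell into 4 groups of 3. Control colonoids carried floxed *Hmox1* alleles (*Hmox1* fl/fl). Colonoids labelled KO carried the same alleles with Vil1-Cre, a transgene driven by the villin promoter, which is active in epithelium of both small and large intestine (*Hmox1* ΔIEC). *Hmox1* encodes heme oxygenase 1, the enzyme that breaks down heme. Each genotype was exposed for 24 hours to vehicle or to 200 μM hemin, a chloride of oxidised heme. All cultures were started from the colons of mice aged 8 to 12 weeks and were kept in medium conditioned by L-WRN cells, a source of Wnt3a, R-spondin and noggin, with a ROCK inhibitor. The label of replicate 3 of the hemin-treated KO group gives the genotype in other words than the labels of the other KO libraries. Nothing in the sources used here ties the libraries within a group to separate animals or cultures. The p-values therefore measure the spread between these libraries, which may be technical.

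Patterning of the gut tube rests on a small number of transcription factors. The caudal-type homeobox factors CDX1 and CDX2 specify intestine as opposed to stomach and stay on in the adult epithelium. GATA4 marks proximal small intestine, where it keeps jejunal genes on and ileal genes off, while GATA6 is found along the whole tract. GATA5 is a further GATA factor of the gut epithelium. HNF4A and HNF4G are paired nuclear receptors that drive the genes of absorptive enterocytes. NR5A2, also called LRH-1, is a nuclear receptor of crypt and bile acid genes. PRDM1, also called BLIMP1, is a repressor that holds the suckling-type epithelium in the embryonic and neonatal gut and is largely switched off at weaning. Among these factors, adult colon is known for high CDX and HNF4A and for the absence of GATA4.

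*Hmox1* itself was measured first as a check of the labels. Under vehicle its FPKM, a level that divides fragments by gene length and by library depth, was 7.62, 6.85 and 7.90 in control and 3.14, 2.11 and 2.31 in colonoids labelled KO. Under hemin the control libraries had 503, 483 and 382, against 1279, 1393 and 1271 with the KO label. The hemin-treated libraries labelled KO thus held more gene-level *Hmox1* RNA than the hemin-treated controls, the reverse of the order under vehicle. A gene-level value does not tell intact transcripts from transcripts that lack deleted exons. This check therefore cannot settle the genotype, and genotypes are given as labelled throughout. Gene-assigned fragments numbered from 11648801 to 25101868 in a library. Replicate 3 of the hemin-treated controls stood apart, with a median absolute log2 difference of 0.255 and 0.301 to the other libraries of its group, where every other pair within a group differed by 0.064 to 0.138. Mitochondrial genes took 4.92% of its fragments, against 2.29% to 3.74% in the other libraries. Results that rest on this library are given with and without it.

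RefSeq promoters (GRCm38.p6) are shown for the 4 factors that differed between the genotypes in the same direction under vehicle and hemin and for which the promoter table held an entry. *Gata4*, which also differed, had no entry. The table held 7 promoters for 5 of the 9 factors. The bases before each transcription start were searched on both strands for short cores of 6 gut factors, and bases that GENCODE places in an exon are not printed. The cores were TTTATG for CDX, AGATAA for GATA factors, CAAAGTC for HNF4, CAAGGTC for NR5A2, GTTAAT for HNF1 and TGTTTAC for FOXA, and no core overlapped another in these sequences. Capitals mark a core or its reverse complement, and each sequence reads 5′ to 3′ on the strand of its gene. The *Cdx2* promoter lies on the minus strand at chr5:147307271-147307499, the *Gata5* promoter on the minus strand at chr2:180334700-180334929, the outer *Nr5a2* promoter on the minus strand at chr1:136960449-136960698, and the *Prdm1* promoter on the minus strand at chr10:44458749-44458998, inside the deposited span of the gene.
Cdx2: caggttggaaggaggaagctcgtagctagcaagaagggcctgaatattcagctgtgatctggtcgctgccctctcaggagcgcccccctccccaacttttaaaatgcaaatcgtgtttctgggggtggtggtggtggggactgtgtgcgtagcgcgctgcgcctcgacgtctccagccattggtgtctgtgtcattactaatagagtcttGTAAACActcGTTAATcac
Gata5: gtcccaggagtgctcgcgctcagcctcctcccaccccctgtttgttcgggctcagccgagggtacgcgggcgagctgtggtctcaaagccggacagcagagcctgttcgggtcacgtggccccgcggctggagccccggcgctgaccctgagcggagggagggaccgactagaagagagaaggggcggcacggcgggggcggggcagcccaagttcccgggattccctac
Nr5a2: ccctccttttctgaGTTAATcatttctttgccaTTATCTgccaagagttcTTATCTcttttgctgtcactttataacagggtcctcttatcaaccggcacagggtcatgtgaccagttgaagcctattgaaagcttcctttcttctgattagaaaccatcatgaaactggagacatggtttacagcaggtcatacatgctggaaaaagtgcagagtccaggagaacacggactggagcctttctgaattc
Prdm1: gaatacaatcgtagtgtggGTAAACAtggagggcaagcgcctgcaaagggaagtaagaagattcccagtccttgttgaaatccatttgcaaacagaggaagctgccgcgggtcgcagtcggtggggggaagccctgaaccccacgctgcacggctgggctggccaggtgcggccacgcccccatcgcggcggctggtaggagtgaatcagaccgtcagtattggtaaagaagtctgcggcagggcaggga

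The *Cdx2* promoter held 1 FOXA core and 1 HNF1 core, which begin 40 and 30 bases before the RefSeq start. The outer *Nr5a2* promoter held 2 GATA cores, 217 and 200 bases before the start, and 1 HNF1 core. The *Prdm1* promoter held 1 FOXA core, 231 bases before its start, and the *Gata5* promoter held none of the 6 cores. Of 32851 promoters of 250 bases in the table, 3.17% held the FOXA core, 6.43% the HNF1 core and 9.99% the GATA core. The CDX, HNF4 and NR5A2 cores were found in none of the 4 sequences shown, and in 10.8%, 3.84% and 3.32% of all promoters. These matches describe letters in a window and carry no measurement of binding.

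The CDX factors were among the most abundant transcription factors of these colonoids, and their balance differed between the genotypes. *Cdx2* (ENSMUSG00000029646, chr5:147300805-147307270, minus strand, 3 exons) had an FPKM of 175, 217 and 214 in vehicle-treated and 225, 245 and 142 in hemin-treated controls. With the KO label its FPKM was 47.3, 50.5 and 48.2 with vehicle and 88.2, 70.8 and 87.8 with hemin. Every library labelled KO was below every control library under both treatments. In such bulk libraries, fewer cells of a type and less RNA per cell cannot be told apart. Mean FPKM was 4.15-fold lower in colonoids labelled KO under vehicle and 2.48-fold lower under hemin. On the log2(FPKM + 1) scale of the fit across all genes, which understates changes of low genes, *Cdx2* fell by 2.03 under vehicle (standard error 0.18, adjusted p = 6.1e-06 from limma) and by 1.27 under hemin (standard error 0.18, adjusted p = 0.00025). Hemin raised *Cdx2* in colonoids labelled KO (log2 difference 0.74, adjusted p = 0.0043), where the 2 treatments did not overlap, although the adjusted p was 0.17 after rescaling to TPM, a unit in which every library sums to the same total. In controls the log2 difference with hemin was −0.02 (95% interval −0.42 to 0.38, adjusted p = 0.94), and 0.22 (adjusted p = 0.12) without replicate 3 of the hemin-treated controls. The difference between the 2 hemin responses of *Cdx2* was 0.76 (95% interval 0.20 to 1.32), with an adjusted p of 0.052, and of 0.022 without that library.

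*Cdx1* (ENSMUSG00000024619, chr18:61018862-61036199, minus strand, 3 exons), the paralog with the stronger crypt expression, did not follow *Cdx2*. Its FPKM was 185, 224 and 226 in vehicle-treated controls and 270, 282 and 275 in vehicle-treated colonoids labelled KO. These 2 groups did not overlap, with all KO libraries above the controls. Hemin-treated controls had 179, 206 and 90.1, and hemin-treated colonoids labelled KO had 182, 173 and 190. The low value of 90.1 belongs to the library that stood apart. No genotype difference of *Cdx1* passed the test in the fit of all 12 libraries, with 0.38 under vehicle (95% interval −0.14 to 0.91, adjusted p = 0.25) and 0.28 under hemin (95% interval −0.24 to 0.81, adjusted p = 0.40). Without replicate 3 of the hemin-treated controls, the vehicle difference stayed at 0.38 with an adjusted p of 0.0032, and the hemin difference became −0.08 (adjusted p = 0.52). With hemin the difference of *Cdx1* was −0.60 (adjusted p = 0.048) in colonoids labelled KO, which no longer passed in 11 of 20 alternatives, among them the omission of any KO library (adjusted p 0.081 to 0.11). In controls the difference was −0.50 (adjusted p = 0.10). Without the library that stood apart these differences had adjusted p-values of 8.4e-05 and 0.23, at −0.60 and −0.14. Leaving out replicate 2 of the hemin-treated controls instead gave −0.73 (adjusted p = 0.021) in controls. The difference between the 2 hemin responses of *Cdx1* was −0.10 (adjusted p = 0.87) with all libraries and −0.46 (adjusted p = 0.014) without the library that stood apart.

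Within each library, *Cdx2* made up 48.8% ± 0.377 (SD, n = 3) of the summed *Cdx1* and *Cdx2* FPKM in vehicle-treated controls and 57.0% ± 3.59 in hemin-treated controls. The share in colonoids labelled KO was 15.0% ± 0.173 with vehicle and 31.1% ± 1.87 with hemin. The sum of both genes ranged from 361 to 441 FPKM in vehicle-treated controls and from 318 to 332 in vehicle-treated colonoids labelled KO. With hemin it ranged from 232 to 450 in controls, where the library that stood apart was lowest, and from 244 to 278 in colonoids labelled KO. The log2 ratio of *Cdx2* to *Cdx1* was −0.07 in vehicle-treated and 0.41 in hemin-treated controls, and −2.50 and −1.15 in the matching groups labelled KO. All 4 comparisons of this ratio had no overlap between groups, each with p = 0.1 in a two-sided exact permutation test, the smallest p that 3 libraries against 3 allow.

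**Figure D1:**
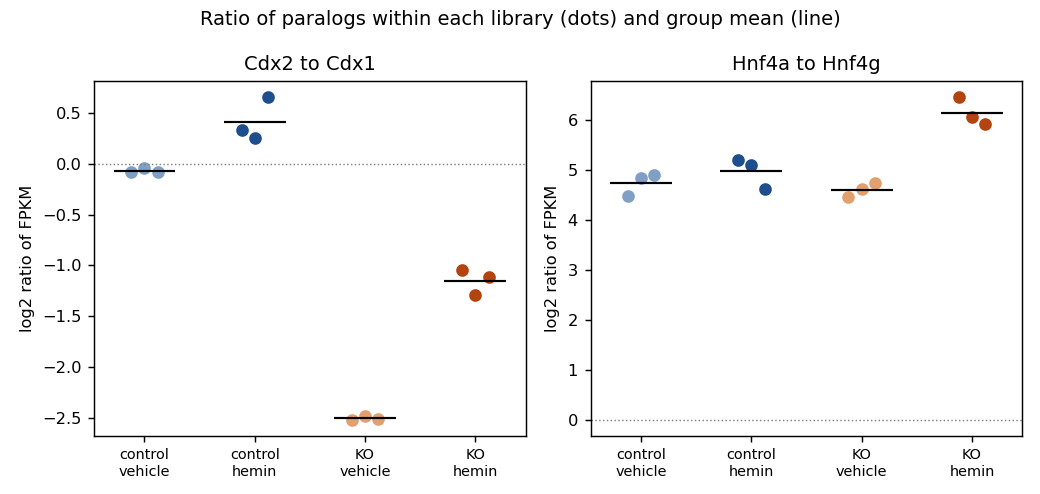
Log2 ratio of FPKM of Cdx2 to Cdx1 (left) and of Hnf4a to Hnf4g (right) in each of 12 libraries (dots), by group on the x axis, with the group mean as a line. The Cdx2 to Cdx1 ratio separates all 4 groups, and the Hnf4a to Hnf4g ratio stands higher in the hemin-treated KO group (mean 6.14) than in the other groups (means 4.60 to 4.98).

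*Hnf4a* (ENSMUSG00000017950, chr2:163506808-163572910, plus strand) moved in opposite directions with hemin in the 2 genotypes on the scale of the deposited FPKM, while its rise in colonoids labelled KO did not pass after rescaling to TPM. Its FPKM in controls was 169, 188 and 189 with vehicle and 149, 151 and 119 with hemin. In colonoids labelled KO it was 140, 143 and 140 with vehicle and 204, 167 and 192 with hemin. None of the 4 pairs of groups compared overlapped. Hemin lowered *Hnf4a* in controls by 0.38 (adjusted p = 0.0092) and raised it in colonoids labelled KO by 0.41 (adjusted p = 0.0053). Between the genotypes, *Hnf4a* was lower in colonoids labelled KO under vehicle (−0.36, adjusted p = 0.017) and higher under hemin (0.42, adjusted p = 0.0079). The difference between the 2 hemin responses was 0.79 (95% interval 0.47 to 1.11, adjusted p = 0.0026), the 1 such difference among the 6 factors tested that passed. All of these were changes of less than 1 log2 unit. Without the hemin-treated control library that stood apart, the hemin difference in controls was −0.27 and the genotype difference under hemin 0.31. Both still passed. The vehicle difference lost significance without replicate 2 or 3 of the vehicle-treated controls, or without replicate 1 or 3 of the vehicle-treated KO group (adjusted p 0.052 to 0.062). After rescaling to TPM, which moves the median of all genes by −0.19 and −0.31 with hemin in control and KO, the rise in KO was 0.07 (adjusted p = 0.81) and the difference between responses 0.64 (adjusted p = 0.22). The genotype differences in TPM were −0.22 under vehicle (adjusted p = 0.50) and 0.43 under hemin (adjusted p = 0.18), so neither passed. In TPM summed without *Gm23935*, a gene that took 16.8% to 29.0% of the FPKM sum in 3 libraries, the rise in KO still did not pass (0.18, adjusted p = 0.16).

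*Hnf4g* (ENSMUSG00000017688, chr3:3508030-3658052, plus strand, 10 exons), the partner receptor, was far less abundant and fell with hemin in both genotypes. Its FPKM in controls was 7.54, 6.56 and 6.34 with vehicle and 4.07, 4.41 and 4.82 with hemin. The values labelled KO were 6.37, 5.85 and 5.24 with vehicle and 2.32, 2.50 and 3.18 with hemin. Hemin and vehicle libraries did not overlap in either genotype. The fall was 0.52 in controls (adjusted p = 0.0016) and 0.90 in colonoids labelled KO (adjusted p = 2.3e-05), or 1.54-fold and 2.18-fold in mean FPKM. The difference between these falls did not pass the test (−0.37, 95% interval −0.70 to −0.05, adjusted p = 0.092), but did without replicate 3 of the hemin-treated KO group (−0.47, adjusted p = 0.036) and in TPM summed without the abundant *Gm23935* (−0.57, adjusted p = 0.036). Under hemin, *Hnf4g* was lower in colonoids labelled KO by 0.57 (adjusted p = 0.0014), while under vehicle the groups overlapped (−0.20, adjusted p = 0.18). *Hnf4g* held 3.63% ± 0.566 (SD, n = 3) of the summed *Hnf4a* and *Hnf4g* FPKM with vehicle in controls and 3.12% ± 0.674 with hemin. Under the KO label it held 3.97% ± 0.381 with vehicle and 1.41% ± 0.259 with hemin. The log2 ratio of *Hnf4a* to *Hnf4g* in the hemin-treated KO group did not overlap with either group it was compared with, at p = 0.1 in the exact permutation test in each case. The hemin comparison in controls and the genotype comparison under vehicle overlapped (p = 0.4 each in the same exact permutation test).

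The GATA factors divided by level. *Gata6* (ENSMUSG00000005836, chr18:11052508-11085635, plus strand) was the abundant one and differed little between groups. Its FPKM was 14.0, 14.5 and 15.7 in vehicle-treated and 16.3, 17.1 and 14.2 in hemin-treated controls, and 14.3, 15.6 and 15.3 and then 17.4, 15.3 and 16.5 with vehicle and hemin under the KO label. All groups overlapped. No *Gata6* comparison passed the test, and the 95% interval of the genotype difference was −0.15 to 0.20 under vehicle and −0.13 to 0.22 under hemin. The sign of its small hemin differences, 0.10 in controls and 0.12 in colonoids labelled KO, turned after rescaling to TPM.

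*Gata4* and *Gata5* were detected at low level in controls and were nearly absent in colonoids labelled KO. *Gata4* (ENSMUSG00000021944, chr14:63198922-63271692, minus strand) had an FPKM of 0.404, 0.854 and 0.764 in vehicle-treated and 0.763, 0.671 and 0.373 in hemin-treated controls. Libraries labelled KO had 0.0470, 0.0593 and 0.0761 FPKM with vehicle and 0.0889, 0 and 0.0357 with hemin. The controls held 124 fragments under vehicle and 82 under hemin over 3 libraries, and the colonoids labelled KO 12 and 7. Scaled for library depth, the control level was 11.0 times that of the KO group under vehicle (95% Clopper-Pearson interval 6.09 to 21.9) and 17.5 times under hemin (8.14 to 45.0), intervals that cover counting error only. With hemin, the *Gata4* level in controls overlapped that with vehicle.

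*Gata5* (ENSMUSG00000015627, chr2:180325133-180334699, minus strand, 6 exons) had an FPKM of 0.592, 0.696 and 0.466 in vehicle-treated controls and 0.160, 0.206 and 0.209 in hemin-treated controls. In vehicle-treated colonoids labelled KO its FPKM was 0, 0.0177 and 0.0181, from 2 fragments in all. No *Gata5* fragment was recovered in the 3 hemin-treated libraries labelled KO. Under vehicle the control level was 49.1 times that of the KO group, with a 95% counting interval of 13.2 to 411. Under hemin it was at least 3.46-fold higher in controls, taking 3 fragments per library as the limit that a count of 0 allows. In controls *Gata5* was 3.05-fold lower with hemin than with vehicle, from 92 and 22 fragments, with no overlap. An annotated antisense transcript, *Gata5os*, overlaps the gene and reached 0.0434 FPKM at most. Whether the counting used strand is not given in the sources used here, so reads from overlapping genes on opposite strands cannot be told apart.

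*Nr5a2* (ENSMUSG00000026398, chr1:136842571-136960448, minus strand) was lower in colonoids labelled KO. Its FPKM in controls was 7.60, 7.35 and 7.03 with vehicle and 7.52, 6.91 and 7.56 with hemin. Colonoids labelled KO had 4.45, 4.29 and 4.23 with vehicle and 4.37, 6.05 and 4.99 with hemin. All 6 control libraries lay above all 6 libraries labelled KO. The mean was 1.70-fold lower in colonoids labelled KO under vehicle (log2 difference −0.65, adjusted p = 0.00019) and 1.43-fold lower under hemin (−0.45, adjusted p = 0.0025). Hemin and vehicle overlapped in both genotypes. The hemin difference in controls was 0.00 (95% interval −0.20 to 0.20), and in colonoids labelled KO it was 0.20 (adjusted p = 0.079), or 0.29 (adjusted p = 0.013) without replicate 1 of the hemin-treated KO group.

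*Prdm1* (ENSMUSG00000038151, chr10:44437177-44528501, minus strand) was the 1 factor of the 9 that was higher in colonoids labelled KO under both treatments without overlap. Its FPKM was 0.522, 0.430 and 0.417 in vehicle-treated and 0.424, 0.364 and 0.399 in hemin-treated controls. Colonoids labelled KO had 0.866, 1.40 and 0.905 with vehicle and 0.983, 0.792 and 0.787 with hemin. The level remained low in every library, from 24 to 135 fragments. The mean was 2.32-fold higher in colonoids labelled KO under vehicle and 2.16-fold higher under hemin. Hemin and vehicle overlapped in both genotypes.

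**Figure D2:**
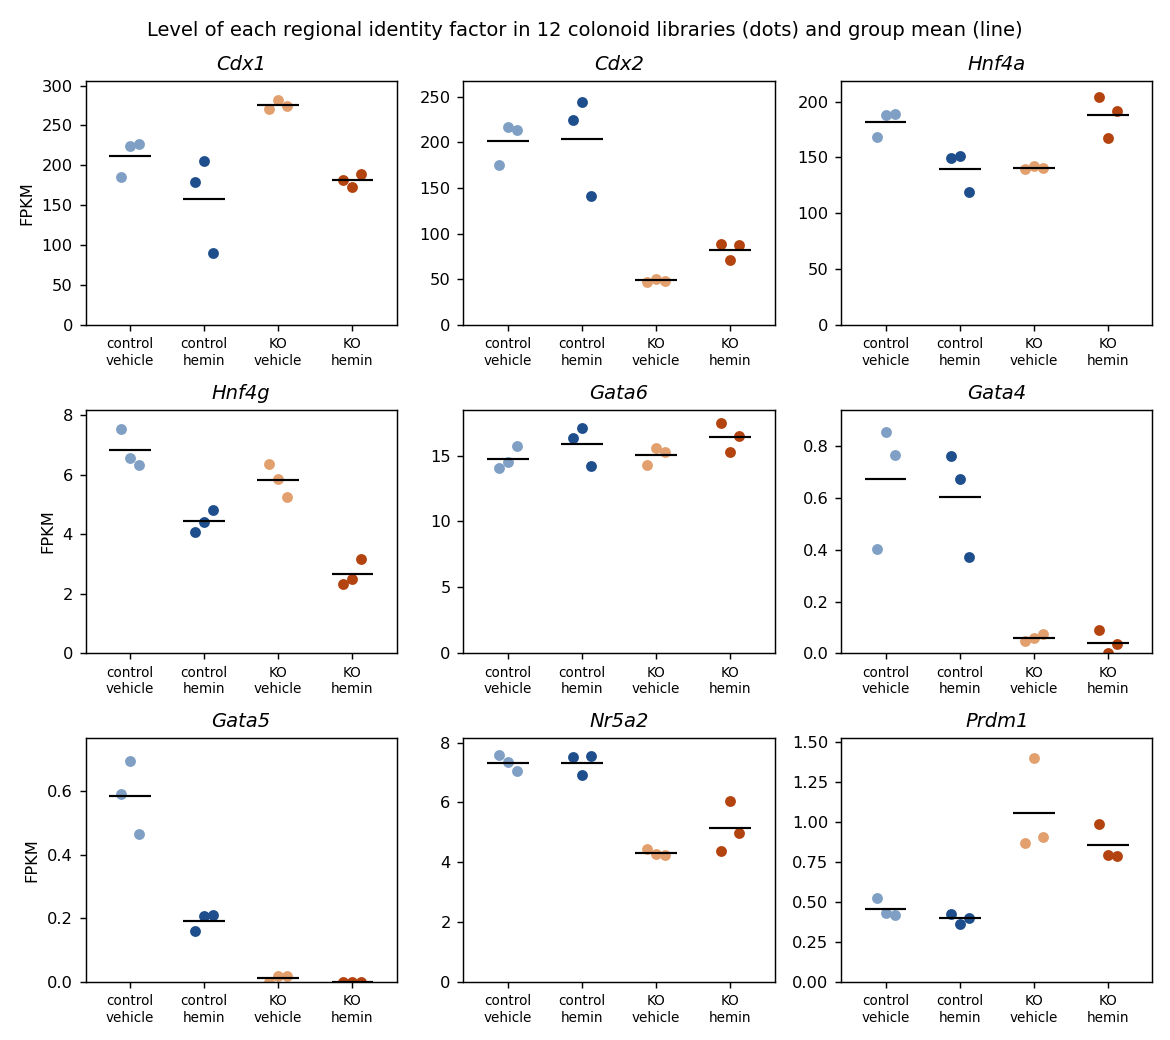
FPKM (y axis, from 0, with its own scale in each panel) of the 9 factors in the 4 groups on the x axis, each dot a library and each line a group mean. Cdx2, Gata4, Gata5 and Nr5a2 lie lower in the libraries labelled KO than in controls, Prdm1 lies higher, and Gata6 stays between 14.0 and 17.4 throughout.

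*Gata4*, *Gata5* and *Prdm1* did not reach the level required for testing, 1 FPKM or more in 3 or more libraries, so 6 of the 9 factors were tested among 12740 genes. They were tested in a fit added after the data were seen, limma-voom on recovered fragments, which took in the 20117 genes that had 10 or more in total. Under vehicle the log2 difference between KO and control was −3.26 for *Gata4* (adjusted p = 0.0014), −4.97 for *Gata5* (adjusted p = 5.6e-06) and 1.17 for *Prdm1* (adjusted p = 0.0013). Under hemin it was −4.55 for *Gata4* (adjusted p = 0.00058), −4.51 for *Gata5* (adjusted p = 9.5e-05) and 1.07 for *Prdm1* (adjusted p = 0.0084). These differences passed the test, where 27.9% of genes passed under vehicle and 25.2% under hemin. *Gata5* met the minimum of 10 fragments through the controls alone, which fixed the direction of its genotype differences, and these are a description. They also passed in limma on log2(FPKM + 1) without a filter, where 16.8% and 14.8% of genes did. The fitted log2 differences of *Gata5* depend on the value that the fit adds to counts of 0, and the fragments given above are the direct measure. Of the 3 factors, hemin lowered *Gata5* in controls (−1.54, adjusted p = 0.0034 in limma-voom, where 35.3% of genes passed). The difference between its 2 hemin responses did not pass in limma-voom (0.46, adjusted p = 0.79, beside 15.4% of genes that passed) and passed without a filter (0.39, adjusted p = 0.0041, beside 10.5%), with 2 and 0 fragments in the KO groups.

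Calls needed an adjusted p under 0.05 together with an absolute log2 difference above 1. By this rule *Cdx2* was the 1 factor of 6 called between the genotypes under vehicle, where 6.8% of all tested genes were called, and again under hemin, where 6.01% were. No factor was called with hemin in controls (8.11% of all genes), with hemin in colonoids labelled KO (12.9%) or for the difference between the hemin responses (5.13%). Under some alternatives, given below, *Hnf4g* was called with hemin in colonoids labelled KO, and *Gata5* in controls. At an adjusted p under 0.05 alone, 3 of 6 passed between the genotypes under vehicle, all lower in colonoids labelled KO (*Cdx2*, *Hnf4a* and *Nr5a2*), beside 34.2% of all genes in either direction and 16.8% that were lower. Under hemin 4 of 6 passed, with *Hnf4a* higher and *Cdx2*, *Nr5a2* and *Hnf4g* lower, beside 34.4% of all genes. Hemin changed 2 of 6 in controls (*Hnf4a* and *Hnf4g*, both lower), where 49.9% of all genes passed and 26.7% were lower. In colonoids labelled KO it changed 4 of 6, with *Cdx2* and *Hnf4a* higher and *Cdx1* and *Hnf4g* lower, where 60.4% of all genes passed. For the difference between the hemin responses, *Hnf4a* alone passed in the fit of all 12 libraries, beside 23.8% of all genes, and *Cdx1* and *Cdx2* passed as well without the library that stood apart. In the limma-voom fit that held all 9 factors, 4 met both thresholds between the genotypes under vehicle and 4 under hemin, *Cdx2*, *Gata4*, *Gata5* and *Prdm1* each time, where 12.2% and 11.0% of genes did. *Gata5* entered that fit through the controls alone, which fixed its direction, so its place in these counts is a description. Of the 6 tested factors, libraries did not overlap in 4 between the genotypes under vehicle (57.5% of all genes), 4 under hemin (40.9%), 2 with hemin in controls (52.4%) and 4 with hemin in colonoids labelled KO (74.4%). These shares set the factors beside all genes and do not show that the set stands apart.

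**Figure D3:**
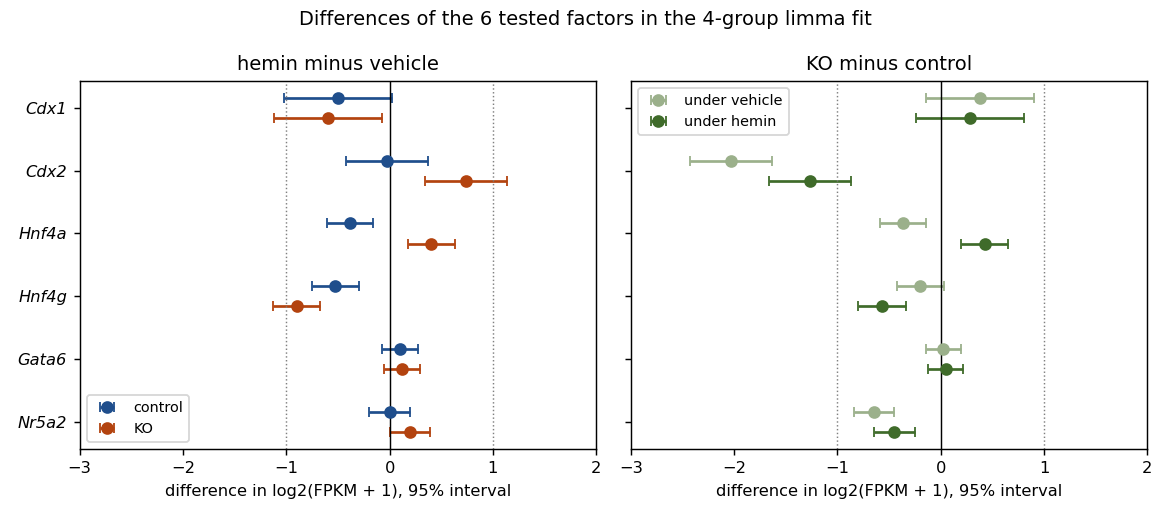
Difference in log2(FPKM + 1) of the 6 tested factors, hemin minus vehicle (left) and KO minus control (right), with 95% intervals from the limma fit of all 12 libraries and dotted lines at −1 and 1. Hnf4a lies on opposite sides of 0 in control and KO, and the 2 Cdx2 points between the genotypes are the only ones beyond the dotted lines.

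FPKM is per length, so the levels of different factors can be ranked within a group. In vehicle-treated controls the order of mean FPKM was *Cdx1* (212), *Cdx2* (202), *Hnf4a* (182), *Gata6* (14.8), *Nr5a2* (7.33), *Hnf4g* (6.81), *Gata4* (0.674), *Gata5* (0.585) and *Prdm1* (0.456). Neighbours overlapped in their libraries from *Cdx1* to *Hnf4a*, between *Nr5a2* and *Hnf4g*, and from *Gata4* to *Prdm1*. In vehicle-treated colonoids labelled KO the order was *Cdx1* (276), *Hnf4a* (141), *Cdx2* (48.7), *Gata6* (15.0), *Hnf4g* (5.82), *Nr5a2* (4.32), *Prdm1* (1.06), *Gata4* (0.0608) and *Gata5* (0.0119), with no overlap between any neighbours. With hemin, *Cdx2* (204) stood first in controls, overlapping *Cdx1* (158), and *Hnf4a* (188) stood first in colonoids labelled KO, again overlapping *Cdx1* (182). Among 1469 genes that the table assigns to a transcription factor family, *Cdx2* ranked 5 in vehicle-treated and 3 in hemin-treated controls, and 33 and 13 in the matching groups labelled KO. *Cdx1* ranked between 2 and 4 and *Hnf4a* between 2 and 7 in the 4 groups, and *Gata6* between 121 and 147.

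Genes known to depend on these factors were counted in lists made from textbook knowledge. Of 13 CDX target genes, 12 were tested. Between the genotypes, 2 were called lower and none higher under vehicle, and 3 lower and none higher under hemin. Of all tested genes, 3.53% were called higher and 3.27% lower under vehicle, and 3.1% and 2.91% under hemin. The list's median log2 difference was −0.40 under vehicle and −0.17 under hemin, where the median of all genes was 0.02 and 0.04. *Isx*, an intestinal homeobox gene that represses vitamin A uptake, had a mean FPKM of 174 in vehicle-treated controls against 72.3 with the KO label, and of 145 against 13.5 under hemin. Its log2 difference was −1.26 under vehicle (adjusted p = 1.3e-07) and −3.33 under hemin (adjusted p = 8.1e-11). *Alpi*, intestinal alkaline phosphatase, was lower by 1.19 and 1.51 (adjusted p = 0.00028 and 5.1e-05). *Muc2*, the goblet cell mucin, was called under hemin, with a mean FPKM of 58.5 in controls and 6.41 in colonoids labelled KO.

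HNF4 target genes went both ways. Of 12 such genes 9 were tested, with 1 called higher and 2 lower between the genotypes under vehicle (3.53% and 3.27% of all genes), and 2 higher and 1 lower under hemin (3.1% and 2.91%). *Fabp2*, the intestinal fatty acid binding protein, had a mean FPKM of 48.9 in controls against 2.66 with the KO label under vehicle, and of 31.4 against 0.573 under hemin. Its log2 difference was −3.77 and −4.37 (adjusted p = 2.9e-08 and 8.5e-09). *Apoa1*, an apolipoprotein of chylomicrons and high-density lipoprotein, was higher in colonoids labelled KO by 1.58 and 2.21, at a mean FPKM of 2.15 and 4.87. It reached 1 FPKM in the 6 libraries labelled KO alone and entered the test through them, so the direction of this call was fixed by the filter. *Dgat2*, an enzyme of triglyceride synthesis, was lower under vehicle (−1.02, adjusted p = 4.6e-05), and fell short of the fold threshold without replicate 3 of the vehicle-treated controls (−0.94) and in TPM (−0.91). *Cideb*, a lipid droplet protein, was called higher under hemin (1.13, adjusted p = 0.0078), but its log2 difference was 0.74 (adjusted p = 0.0024) without the hemin-treated control library that stood apart and 0.98 (adjusted p = 0.036) without replicate 3 of the hemin-treated KO group, both below the threshold for a call. With hemin 2 of the 9 were called lower in each genotype and none higher, where 5.93% of all genes were called lower in controls and 8.07% in colonoids labelled KO. In controls these were *Creb3l3*, a lipid-regulating factor of enterocytes, at −1.94, and *Tm4sf4* at −1.29, and in colonoids labelled KO *Creb3l3* at −1.10 and *Fabp2* at −1.23. *Creb3l3* and *Tm4sf4* reached 1 FPKM in vehicle-treated libraries alone and entered the test through them, which fixed the direction of their hemin differences.

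Of 10 jejunal genes that depend on GATA4 in small intestine, 5 were tested and the other 5 (*Cubn*, *Sis*, *Anpep*, *Fabp1* and *Lct*) stayed under 1 FPKM in every library. In each genotype comparison 1 was called lower, *Fabp2*, and 1 higher, where 3.27% and 3.53% of all genes were under vehicle and 2.91% and 3.1% under hemin. The higher one was *Rbp2*, the cellular retinol carrier of enterocytes, with a mean FPKM of 2.40 in controls against 11.4 with the KO label under vehicle, and of 5.01 against 66.7 under hemin. Its log2 difference was 1.86 under vehicle (adjusted p = 7.1e-07) and 3.50 under hemin (adjusted p = 4.6e-09). Of 6 ileal genes that GATA4 holds down, 5 were tested, and 3 were called lower in colonoids labelled KO under vehicle, beside 3.27% of all genes. These were *Nr1h4*, the bile acid receptor FXR, at −1.63, *Fgf15*, the FXR-induced hormone, at −1.25, and *Slc51a*, a subunit of the basolateral bile acid exporter, at −1.15. *Fgf15* and *Slc51a* reached 1 FPKM in the vehicle-treated controls alone, which brought them into the test and fixed their direction, so these calls are a description. Under hemin *Nr1h4* was lower (−1.44) and *Slc10a2*, the apical bile acid transporter, was higher (2.41), with a mean FPKM of 2.64 in controls and 18.1 in colonoids labelled KO. *Fgf15* is also a target of NR5A2. Of 6 NR5A2 targets 2 were tested. The other, *Ccne1* for cyclin E1, was called higher in colonoids labelled KO under hemin (1.30, adjusted p = 6.2e-06), beside 3.1% of all genes.

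Among 24 further factors of gut position and identity outside the Hox clusters, 14 were tested. Under vehicle 2 were called higher and 1 lower in colonoids labelled KO (3.53% and 3.27% of all genes), and under hemin 1 higher and 1 lower (3.1% and 2.91%). *Foxa2*, a pioneer factor of endoderm, had an FPKM of 2.97, 2.30 and 2.61 in vehicle-treated controls and 27.2, 29.2 and 27.4 in vehicle-treated colonoids labelled KO. With hemin its mean was 2.13 against 10.9, so the log2 difference was 3.00 under vehicle (adjusted p = 1.3e-08) and 1.95 under hemin (adjusted p = 4.3e-07). *Foxa3*, a further FOXA factor, was the other one higher under vehicle (1.07, adjusted p = 0.00011), with a mean FPKM of 9.46 in controls and 20.9 in colonoids labelled KO. *Isx* was the lower one in both comparisons. Hemin lowered 2 of the 14 in controls and 5 of the 14 in colonoids labelled KO, beside 5.93% and 8.07% of all genes, and raised none in either. *Sox9*, a factor of crypt progenitors, was lower in both (−1.23 and −1.32), as was *Creb3l3* (−1.94 and −1.10). In colonoids labelled KO the others were *Isx* (−2.34), *Foxa3* (−1.69) and *Foxa2* (−1.28). *Creb3l3*, counted in both genotypes, reached 1 FPKM in vehicle-treated libraries alone, so the filter fixed the direction of its hemin differences. Of 6 GATA cofactors 2 were tested and neither was called in any comparison. Of 10 other members of the same families 4 were tested and *Prdm16* was called lower in colonoids labelled KO under vehicle (−1.18, adjusted p = 1.9e-06). It reached 1 FPKM in 4 control libraries alone, so the filter fixed that direction too.

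**Figure D4:**
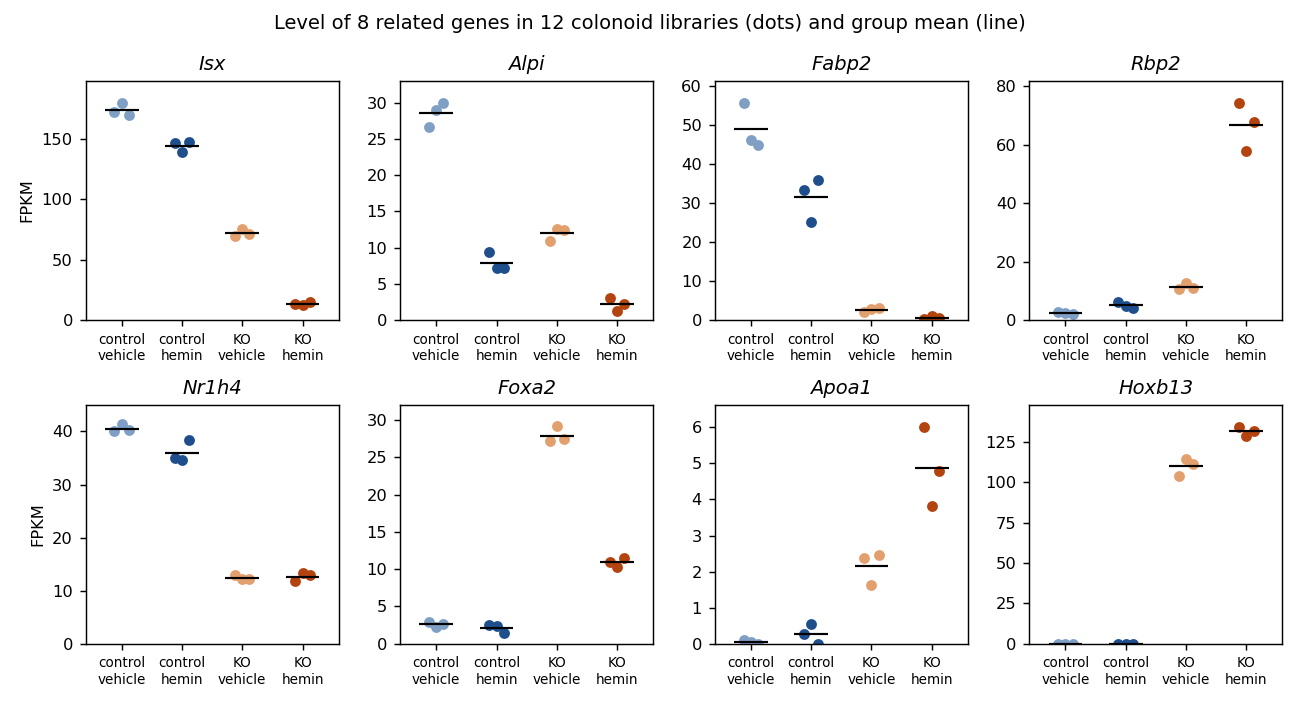
FPKM (y axis, from 0, with its own scale in each panel) of 8 genes from the lists in the 4 groups on the x axis, each dot a library and each line a group mean. Isx, Alpi, Fabp2 and Nr1h4 lie lower in the libraries labelled KO than in the controls of the same treatment, and Rbp2, Foxa2, Apoa1 and Hoxb13 lie higher.

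Markers of region and cell type were read beside these results. All 8 epithelial markers were present, with a summed FPKM of 5975 to 10421 per library. All 9 fibroblast and muscle, 8 leukocyte and 4 endothelial markers were under 1 FPKM in every library, with summed levels of at most 0.174, 0.354 and 0.283. Of 11 stomach markers 10 were under 1 FPKM in every library. The exception, *Tff2*, reached a mean of 1.01 in vehicle-treated controls and was 0 in every hemin-treated library. Of 12 small intestinal markers 5 were under 1 FPKM in every library, among them lactase (*Lct*) and sucrase-isomaltase (*Sis*), and the summed level was 80.5 to 92.1, 58.5 to 76.5, 47.0 to 50.3 and 97.1 to 116 in controls with vehicle and hemin and colonoids labelled KO with vehicle and hemin. Between the genotypes, 6 of these markers were tested. Of all tested genes, 3.53% were called higher and 3.27% lower under vehicle, and 3.1% and 2.91% under hemin. Of the 6 markers, 3 were called higher and 1 lower under each treatment. *Fabp2* was the lower one, *Apoa1* and *Rbp2* were higher under both, *Slc10a2* under hemin, and *Lyz1*, lysozyme, named after its values were seen, under vehicle (1.27). *Lyz1* reached 1 FPKM in the vehicle-treated libraries labelled KO and in 1 hemin-treated control, so, as for *Apoa1*, the filter fixed that direction. All 11 colon markers were tested, and between the genotypes 6 were called higher and 1 lower under vehicle, beside 3.53% and 3.27% of all genes, and 5 higher and 2 lower under hemin, beside 3.1% and 2.91%. Their summed level was 2738 to 3001 in vehicle-treated controls and 2298 to 2361 in vehicle-treated colonoids labelled KO, and 4660 to 7092 and 3341 to 4145 with hemin. Most of each sum came from 1 abundant marker, lower in colonoids labelled KO under both treatments but not called between the genotypes. The sums are therefore no measure of the list as a whole. *Hoxb13*, a homeobox gene of the most distal hindgut, was listed at 0 in all 6 control libraries and had an FPKM of 104 to 134 in the libraries labelled KO, through which alone it entered the test. *Car4*, *Saa1* and *Aqp8*, also colonic, were higher in colonoids labelled KO under both treatments. *Aqp4* (2.69 and 1.71) and, under vehicle, *Slc26a3* (1.32), named after their values were seen, completed the higher ones. *Guca2a*, a ligand of guanylate cyclase C, was lower under both (−2.55 and −4.63), as was *Muc2* under hemin (−3.01). These differences lay between the same libraries as those of *Cdx2*, *Gata4*, *Gata5*, *Nr5a2* and *Prdm1*. Genotype and the colon segment or animal of origin cannot be told apart in this design.

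The genes whose pattern over the 12 libraries lay closest to each tested factor are given as a description, by Pearson's r of log2(FPKM + 1), with group differences and depth shared by all points. The closest to *Cdx2* were *B4galnt1* (r = 0.99), *Arl14* (0.99) and *Cdkn2b* (0.98), of which *B4galnt1* had a mean FPKM of 20.8 in controls against 0.599 with the KO label under vehicle, and of 21.7 against 2.87 under hemin. Closest to *Cdx1* were *Bex3* (0.99), *Rai1* (0.99) and *Mcrip2* (0.98). *Hnf4a* was followed most closely by *Gpi1* (0.99), *Ppp1r15a* (0.96) and *Wipf2* (0.96), and *Hnf4g* by *Ash2l* (0.97), *Ang4* (0.97) and *Zranb3* (0.97). The glycolytic enzyme gene *Gpi1* had a mean FPKM of 138 in controls against 114 with the KO label under vehicle, and of 113 against 147 under hemin. For *Nr5a2* these genes were *Eomes* (0.97), *Dcp2* (0.96) and *Rars* (0.96), and for *Gata6*, whose own range was small, *Aamp* (0.94), *Pcnx3* (0.93) and *Coq8b* (0.93).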

How the data were processed

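The authors deposited 1 table of FPKM, fragments scaled by gene length and library depth, with 54532 genes and 12 libraries. The submitters' processing notes name fastp, HISAT2 2.0.5, featureCounts 1.5.0-p3 and mm10. Median-of-ratios factors computed from the deposited FPKM were 1, so a scaling had been applied. All values were whole multiples (within 0.01) of the value of 1 fragment, which gave back the fragments.

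All later steps were computed here with R 4.3.3, limma 3.58.1 and Python 3.11.15. One limma model of 4 group means with an intensity trend was fitted to log2(FPKM + 1) for 12740 genes, those that reached 1 FPKM in 3 or more libraries, with Benjamini-Hochberg adjustment over them. The code was tested on simulated data. Genes outside the 9 were named by a rule: *Hmox1*, at most 3 called genes without overlap per list and comparison, list genes near 0 where a list checks tissue, and the 3 genes most like each tested factor. The 9 factors, the lists and the rule were chosen with earlier results of these data known. One further gene of the lists is not reported here. Alternatives were a pseudocount of 0.1, no filter, TPM, median-of-ratios scaling, a block for the replicate number, limma-voom on recovered fragments and each library left out. TPM summed without *Gm23935* and limma-voom on every gene with 10 or more fragments were added after seeing the data. Coordinates are as deposited. GENCODE M21 (GRCm38) holds 54409 of the identifiers, 98.33% of them with identical start and end.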

Additional observations from a re-analysis of the deposited data

Results flagged for a closer look

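The hemin response of *Hnf4a* differed between the genotypes, by 0.79 on the log2(FPKM + 1) scale in limma's interaction term (adjusted p = 0.0026). Mean FPKM went from 182 to 140 with hemin in controls and from 141 to 188 in colonoids labelled KO, with no overlap in either. Every hemin-treated control library lay below the vehicle-treated controls, and every hemin-treated library labelled KO lay above its vehicle-treated group. Over 20 alternatives the difference ranged from 0.64 to 0.87, and the adjusted p passed 0.05 in 19 of them, the exception being TPM (0.64, adjusted p = 0.22). Of these alternatives, median-of-ratios scaling had factors of 1 and in effect repeated the fit of all 12 libraries. No filter and a replicate block left the log2 difference itself unchanged. *Gm23935* held 16.8% of the FPKM sum in replicate 1 of the vehicle-treated controls, 29.0% in replicate 1 of the hemin-treated controls and 21.0% in replicate 2 of the hemin-treated KO group, against 1.18% to 2.81% in the other 9 libraries, which enters the TPM sum. With *Gm23935* left out of the sum, the difference in TPM was 0.67 (adjusted p = 0.0076), while the rise in colonoids labelled KO was 0.18 and did not pass (adjusted p = 0.16).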

How the results depend on the processing

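Of 600 values of the 6 tested factors under alternatives, 539 kept their direction and their side of the adjusted p threshold, 21 lost it, 13 gained it and 27 changed sign. Some of these values could not move, since the median-of-ratios factors were 1. No filter, a replicate block or the omission of a library outside a comparison also left the log2 difference of that comparison unchanged. *Cdx2* was called between the genotypes under every alternative run, at −2.12 to −1.89 under vehicle and −1.51 to −1.11 under hemin.

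The number of factors called by both thresholds moved from 0 to 1 with hemin in controls in limma-voom on all genes, and from 0 to 1 with hemin in colonoids labelled KO under a pseudocount of 0.1, TPM, TPM without *Gm23935*, limma-voom and limma-voom on all genes. In limma-voom on all genes the factor was *Gata5* in controls (−1.54) and *Hnf4g* in colonoids labelled KO (−1.14). *Hnf4g* was also the factor called in the other alternatives. Between the genotypes the number moved from 1 to 4 in limma-voom on all genes, under vehicle and under hemin alike. *Gata5*, 1 of the 4, entered that fit through the controls alone. That fit took in more genes on another scale, and without a filter on log2(FPKM + 1), where the same 3 low factors passed the adjusted p, none of them reached the fold threshold (−0.65 to 0.49 under vehicle and −0.61 to 0.41 under hemin). At the adjusted p alone it was 2, 4, 3, 4 and 1 for hemin in control, hemin in KO, genotype under vehicle, genotype under hemin and the interaction.

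Signs turned only for differences that had not passed the test. For *Gata6*, TPM and TPM without *Gm23935* gave −0.086 and −0.0039 with hemin in controls, −0.21 and −0.10 with hemin in KO, and −0.12 and −0.10 for the interaction, and TPM without *Gm23935* gave −0.0041 between genotypes under hemin. For *Nr5a2* with hemin in controls they gave −0.18 and −0.10, limma-voom −0.0012 and limma-voom on all genes −0.0013, and TPM gave −0.10 with hemin in KO. TPM moved the median of all genes by −0.19 with hemin in controls, −0.31 with hemin in KO, 0.16 between genotypes under vehicle and −0.11 for the interaction.

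Leaving out 1 library at a time gave −0.17 to 0.22 for *Cdx2* and −0.025 to 0.037 for *Nr5a2* with hemin in controls, −0.0067 to 0.070 for *Gata6* between genotypes under vehicle, −0.079 to 0.51 for *Cdx1* and −0.025 to 0.098 for *Gata6* under hemin, and −0.46 to 0.13 for *Cdx1* and −0.052 to 0.071 for *Gata6* in the interaction. The fall of *Cdx1* with hemin in KO lost significance in 11 of 20 alternatives, among them the omission of any vehicle-treated library or any KO library. The interaction of *Cdx2* gained it in 7 of 20, including the omission of replicate 1 of the vehicle-treated controls, any hemin-treated control or replicate 2 of the hemin-treated KO group.

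With the replicate number as a block, the fall of *Cdx1* with hemin in KO had an adjusted p of 0.061, and no other factor changed its side. Same-numbered libraries did not deviate together (mean correlation −0.0425, range −0.327 to 0.179), so the numbers were not taken as pairs.

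Counts of called list genes between the genotypes rose by more than 1.5 times under some alternative for HNF4 targets (3 to 6 under vehicle), GATA4-dependent jejunal genes (2 to 4 under vehicle and under hemin), NR5A2 targets (1 to 2 under vehicle and 1 to 4 under hemin), further factors (3 to 9 and 2 to 4), other members of the families (1 to 3 under vehicle) and small intestinal markers (4 to 7 under vehicle). Limma-voom on all genes, 1 of these alternatives, tested 20117 genes rather than 12740. It called 12.2% of genes under vehicle and 11.0% under hemin, where the fit of all 12 libraries on log2(FPKM + 1) called 6.8% and 6.01%. The rises are therefore not a result about the lists. Leaving out 1 library took HNF4 targets from 3 to 2 under each treatment, with *Dgat2* or *Cideb* lost.

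Depth limits the factors below 1 FPKM, where 1 fragment decides much of a value. The smallest p of the ratio tests is 0.1.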
